A study of Mus musculus with 137 samples.

Results

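Crypt tissue of mice given 60 ppm hexavalent chromium (Cr(VI)) in drinking water was compared with crypt tissue of time-matched control mice after 7 days of exposure, a time point the study calls day 8. The members were chosen by their labels for compartment, concentration and exposure time, which gave 5 exposed and 5 control libraries, from 10 of the 71 mice and 2 of the 28 groups of compartment, concentration and day in the series. All 10 mice were female, wildtype B6C3F1 animals (a hybrid strain) that drank freely. The exposed mice (446, 447, 448, 449 and 450) received Cr(VI) as sodium dichromate dihydrate, and the control mice (46, 47, 48, 49 and 50) received 0 ppm. Each library came from 1 mouse and from a transverse section of formalin-fixed, paraffin-embedded (FFPE) duodenum from which the villus region had been removed, so the tissue left held the crypts together with the lamina propria, muscle and any gland below them. The ages of the mice are not given in the sources used here. Expression was read with TempO-Seq, in which pairs of detector oligomers are ligated on their target messenger RNA, amplified and counted.

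Crypts are the pockets at the base of the intestinal epithelium where stem and transit amplifying cells divide and Paneth cells reside, and their daughters move up onto the villus as absorptive enterocytes, goblet cells and other types. Cr(VI) taken in with drinking water reaches the duodenal surface first and is reduced to trivalent chromium on the way. The duodenum is the segment that digests and absorbs fat, sugar and iron, and its epithelium carries enzymes of drug and lipid metabolism together with a resident population of intraepithelial lymphocytes.

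The 10 libraries held 2401911 to 5679552 counts in total, against 1463938 to 7199801 over the series, and 3 counts corresponded to 0.558 to 0.997 CPM (counts scaled to a common library total). Levels below are in CPM on the scaled library size, and differences are log2 fold changes with their standard error (SE). Of the 20 pairs of replicates, none agreed within sampling noise (lowest chi-square per degree of freedom 14.4), so all 5 libraries of each group were counted. The p-values measure the spread between libraries within a group, pooled over the 28 groups of the series. That fit treats crypt and villus libraries of a mouse as separate. The counts are amplified reads and not molecules, so the floor of 3 counts covers counting error only. Some libraries stood apart from their labels, and results are therefore given with and without them. The summed level of 8 crypt markers (Lyz1, Mmp7, Defa5, Defa22, Ephb2, Pcna, Olfm4 and Lgr5) was 1488 CPM in the crypt library of control mouse 49, below the 5420 to 19817 CPM of the other controls and the 7003 to 15155 CPM of the exposed mice. That library also had the highest sum of 8 villus markers, 19395 CPM, against 7615 to 9443 CPM in the other controls and 2829 to 7572 CPM in the exposed mice. Both libraries of exposed mouse 447 carried transcripts of the ileum, the distal small intestine. The ileal bile acid binding protein Fabp6 stood at 6779 CPM in its crypt and 19907 CPM in its villus, against at most 9.79 CPM in the 135 libraries of other mice, and the bile acid transporter Slc10a2 stood at 170 and 816 CPM against at most 15.1 CPM. The duodenal transcription factor Gata4 had no count in either library of mouse 447 and the fatty acid binding protein Fabp1 stood at 4.88 CPM in its crypt, against at least 827 CPM in the other 9 crypts. These region markers were chosen after their values were seen.

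**Figure D1:**
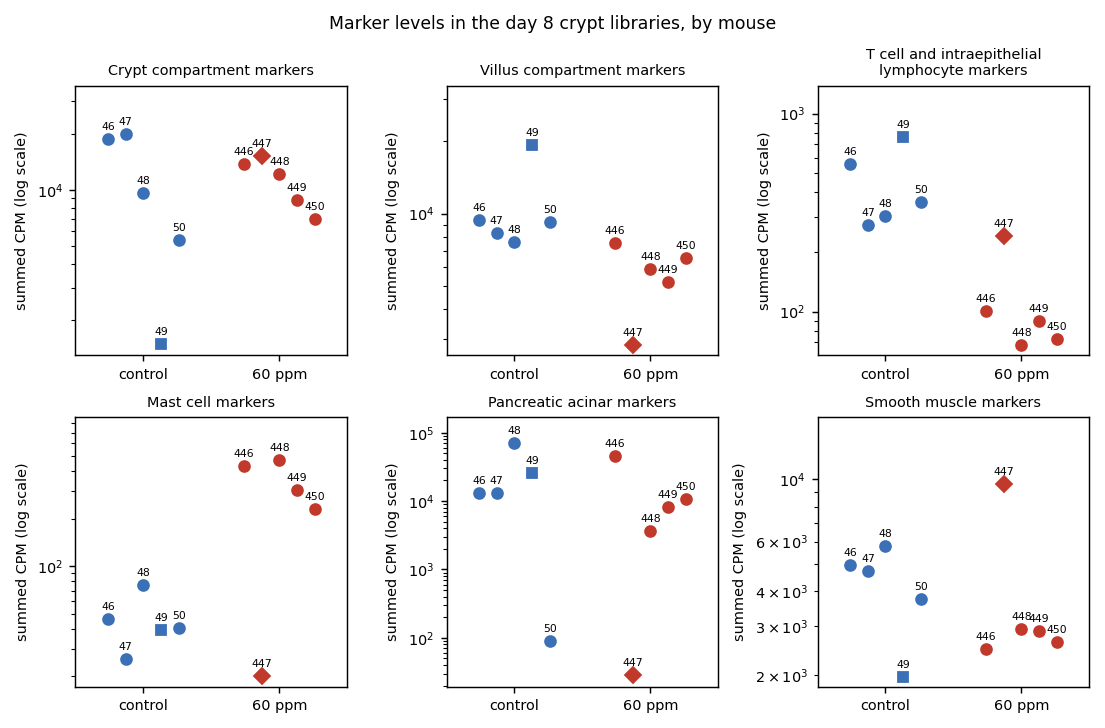
Summed CPM (log scale) of 6 marker lists in each of the 10 crypt libraries of day 8, labelled by mouse number, with control mice in blue and mice exposed to 60 ppm in red. Control mouse 49 (square) lay lowest for crypt markers and highest for villus markers, and exposed mouse 447 (diamond) lay apart in the T cell, mast cell, acinar and smooth muscle panels.

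Of 19020 genes tested, 300 (1.58%) differed between the groups at an adjusted p below 0.1, 86 of them higher (0.452%) and 214 lower (1.13%) in the exposed crypts. The absolute log2 fold change of the 351 probes called had a median of 1.38 and ran from 0.62 to 9.11, and 180 of them had no overlap between the 5 exposed and the 5 control libraries, against 516 of all 26365 probes (1.96%). Without mice 49 and 447, 147 genes (0.773%) were called, 50 higher (0.263%) and 97 lower (0.510%). Of the 351 probes, 350 kept their sign and 124 stayed called in that fit. Leaving out 1 library changed the count most for control mouse 49 (88 genes, 25 higher and 63 lower) and exposed mouse 449 (172 genes, 40 higher and 132 lower). When only the crypts of day 8 were fitted, 292 genes were called and the split became 144 higher and 148 lower.

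**Figure D2:**
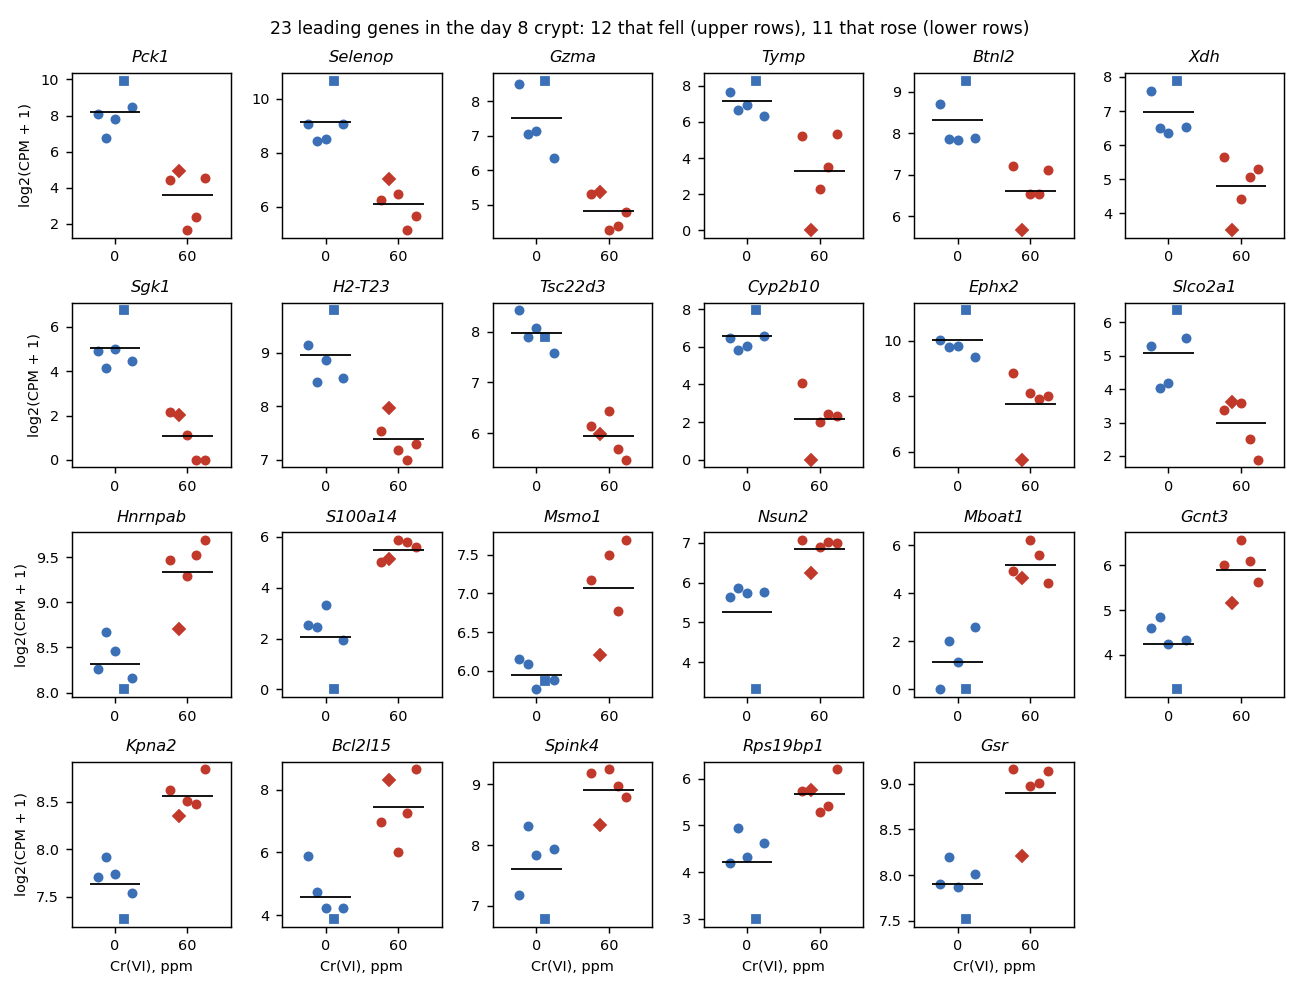
Levels of 23 of the 24 leading genes, log2(CPM + 1) on the vertical axes, in the 5 control (blue, 0 ppm) and 5 exposed (red, 60 ppm) crypt libraries of day 8, with bars at the group means, squares for control mouse 49 and diamonds for exposed mouse 447. In each of the 23 panels the 5 exposed libraries lay on the other side of the 5 controls, without overlap, as the rule for choosing these genes required.

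The genes that fell with the smallest p were led by Pck1, which encodes the cytosolic phosphoenolpyruvate carboxykinase of gluconeogenesis (chr2:173153048-173159273, GRCm38). Pck1 stood at 267, 109, 221, 976 and 349.7 CPM in control mice 46 to 50 and at 20.3, 29.6, 2.09, 4.13 and 21.7 CPM in exposed mice 446 to 450. Every exposed library lay below every control, and the log2 fold change was -4.59 ± 0.62 (adjusted p = 2.34e-07) with all libraries and -4.23 ± 0.66 without mice 49 and 447. Selenop (chr15:3268547-3280508), the selenium carrier of plasma, stood at 533, 349, 359.9, 1632 and 529 CPM in controls and 75.1, 129, 87.5, 34.1 and 49.7 CPM in exposed crypts. Mouse 49 was the highest control, the groups were apart without it as well, and the difference was -3.17 ± 0.44 (adjusted p = 4.29e-07).

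Among the other leading decreases were 3 enzymes of nucleoside, purine and epoxide metabolism and a transporter. Tymp, thymidine phosphorylase, was measured at 197, 98.7, 122, 310.5 and 80.6 CPM in controls and 36.8, 0, 3.96, 10.2 and 39.4 CPM in exposed mice (-3.11 ± 0.44, adjusted p = 4.29e-07). The exposed crypt without a Tymp count was that of mouse 447. Xdh, the xanthine dehydrogenase of purine breakdown, had 191, 89.6, 81.0, 236 and 92.4 CPM in controls. It had 49.3, 10.4, 20.5, 32.9 and 38.5 CPM in exposed mice (-2.16 ± 0.32, adjusted p = 1.81e-06). The soluble epoxide hydrolase Ephx2 had 1042, 883, 884, 2186 and 671 CPM in controls and 449.7, 51.0, 276, 237 and 257 CPM in exposed mice (-2.15 ± 0.34, adjusted p = 5.19e-06). Neither gene overlapped between the groups, and the lowest exposed library was mouse 447 for both. The prostaglandin transporter Slco2a1 stood lower, at 38.0, 15.6, 17.2, 81.4 and 45.4 CPM in controls and 9.30, 11.3, 10.9, 4.72 and 2.69 CPM in exposed mice (-2.27 ± 0.37, adjusted p = 9.33e-06).

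Of 12 genes listed as glucocorticoid targets, 2 were called lower and none higher. Over all genes, on the same basis of 1 probe a gene, 1.07% were lower and 0.384% higher. Sgk1, the serum and glucocorticoid regulated kinase (chr10:21882184-21999903), was at 28.8, 16.6, 30.8, 107 and 20.9 CPM in controls and 3.53, 3.05, 1.16, 0 and 0 CPM in exposed crypts. No exposed library reached the lowest control, and Sgk1 fell by 4.31 ± 0.70 on the log2 scale (adjusted p = 1.81e-06). Tsc22d3, which encodes the glucocorticoid-induced leucine zipper protein GILZ (chrX:140539528-140600659), was at 342, 236, 267, 238 and 189.6 CPM in controls and 69.6, 62.6, 85.4, 50.6 and 43.4 CPM in exposed crypts, a fall of 2.02 ± 0.32 (adjusted p = 5.18e-06). Here mice 49 and 447 lay inside their groups, and the difference without them was -2.05 ± 0.35. The median log2 fold change of the 12 was -0.59, beside -0.05 over all genes. That median includes Cyp11a1 (-0.73) and Cyp11b1 (-1.47), whose only counts were in control mouse 46 (1.80 and 4.79 CPM). Fkbp5, another target, was at 241, 96.5, 210.2, 164 and 141 CPM in controls and 156, 183, 62.4, 105 and 168 CPM in exposed mice, and those groups overlapped. Zbtb16, a transcription factor picked out after its values were seen, was at 23.4, 31.4, 35.7, 27.9 and 24.5 CPM in controls and 1.86, 3.05, 3.03, 3.15 and 0 CPM in exposed mice without overlap, although its adjusted p was 0.213. The summed level of the list was 634 to 982 CPM in controls and 419 to 502 CPM in exposed mice.

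Cytochrome P450 genes of families 1 to 4, oxidases of drugs, steroids and fatty acids, were lower in 11 of 65 members tested and higher in none. Their median was -0.76, and over all genes 1.07% were lower and 0.384% higher. Many members had few counts, and the median was the value of Cyp2c70, at 0 to 9.28 CPM in controls. Of the 65, 11 had a log2 fold change above 0. Cyp2c65, at 314 to 622 CPM in controls, differed by -0.13. Its exposed values were 11.3 CPM in mouse 447 and 322 to 596 CPM in the others. Cyp2b10, a gene known as a target of the receptor CAR, stood at 86.6, 56.0, 64.0, 244 and 93.4 CPM in controls and 15.8, 0, 3.03, 4.33 and 4.03 CPM in exposed crypts (-4.15 ± 0.66, adjusted p = 5.18e-06). Mouse 447 had none and mouse 49 had the most, but the difference was still -3.35 ± 0.69 without both. Its reads may be shared with near-identical genes of the Cyp2b family, as may those of other P450 and Ugt genes. Cyp3a25 (-2.86 ± 0.51), Cyp4f16 (-1.64 ± 0.33) and Cyp4v3 (-1.87 ± 0.38) also fell. Without mice 49 and 447 the list kept 4 calls and a median of -0.70, and Cyp4v3 was no longer called (adjusted p = 0.196).

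Of 73 conjugating enzymes 2 were higher and 2 lower, beside 0.384% of genes higher and 1.07% lower over all genes. The glutathione transferases Gsta3 and Gsta4 rose by 1.77 ± 0.41 and 1.49 ± 0.42, while the bilirubin glucuronosyltransferase Ugt1a1 and the carboxylesterase Ces2b fell by 1.14 ± 0.28 and 1.05 ± 0.29. Gsta4 stood at 59.6, 85.8, 69.0, 70.8 and 40.6 CPM in controls and 300.0, 5.49, 254, 259 and 101 CPM in exposed mice. The exposed library of mouse 447 was the lowest of the 10, and the other 4 exposed libraries lay above every control. Without mice 49 and 447 the list had 3 genes called higher and none lower. Gsr, glutathione reductase, rose by 1.02 ± 0.25 (adjusted p = 0.015), from 239, 294, 233, 183 and 256 CPM to 569.7, 294, 503, 514 and 564 CPM. In Gsr too the exposed value of mouse 447 was the lowest of its group, only just above the highest control.

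Genes of fat and sugar uptake belong to mature enterocytes. Their counts are to be read beside the 1.07% of genes lower over all genes. Of 18 genes of lipid absorption and chylomicrons 6 were lower and none higher (median -0.87), of 11 genes of sugar uptake, fructolysis and gluconeogenesis 3 were lower (median -0.88), of 34 genes of fatty acid oxidation and PPAR alpha targets 6 were lower (median -0.27), and of 27 enterocyte markers 11 were lower (median -0.94). The chylomicron apolipoproteins Apoa1 and Apoa4 fell by 2.27 ± 0.40 and 2.29 ± 0.46. Apoa1 stood at 6003, 3915, 3789, 13366 and 2950.3 CPM in controls and 1960.2, 546, 710.4, 1100.1 and 1923 CPM in exposed crypts, with no overlap. Apoc3 (-2.73 ± 0.49), Apoc2 (-1.91 ± 0.38), the disaccharidases Mgam (-1.48 ± 0.26) and Treh (-1.77 ± 0.36), the glucose transporters Slc5a1 (-1.16 ± 0.27) and Slc2a2 (-1.96 ± 0.55), and the amino acid and peptide carriers Slc6a19 (-1.46 ± 0.31), Slc6a20a (-1.67 ± 0.35) and Slc15a1 (-1.37 ± 0.41) were all called lower. Angptl4, a secreted inhibitor of lipoprotein lipase, stood at 106, 50.6, 54.2, 106 and 56.7 CPM in controls and 25.3, 23.8, 2.56, 7.09 and 5.82 CPM in exposed crypts (-2.49 ± 0.53, adjusted p = 0.00191). The fatty acid activating enzyme Slc27a2 fell by 1.82 ± 0.40.

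The marker sums of the villus and of enterocytes lay lower in the exposed crypts too. The 8 villus markers summed to 7615 to 19395 CPM in controls and 2829 to 7572 CPM in exposed mice, and 1 of the 8, Apoa4, was called. The 27 enterocyte markers summed to 41322 to 106431 CPM in controls and 12594 to 51332 CPM in exposed mice, the extremes being mice 49 and 447. Without these 2 libraries the medians were -0.57 for enterocyte markers (3 called), -0.35 for lipid absorption (3 called), -0.69 for sugar uptake (1 called) and -0.12 for fatty acid oxidation (2 called), and Treh (adjusted p = 0.385), Slc5a1 (0.385), Slc2a2 (0.385), Slc6a19 (0.385), Slc15a1 (0.685), Slc6a20a (0.105) and Apoc2 (0.253) were no longer called. The part of villus content in these differences, and in those of the metabolic, P450, lymphocyte and antigen presentation genes, was not tested.

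Of 13 markers of intraepithelial lymphocytes and T cells 6 were called lower and none higher, beside 1.07% of genes lower over all genes. Gzma, the granule protease granzyme A (chr13:113093825-113100981), stood at 361, 131, 139, 384 and 80.3 CPM in controls and 38.3, 40.3, 18.2, 20.1 and 26.9 CPM in exposed crypts. All exposed libraries lay below the lowest control (-2.91 ± 0.41, adjusted p = 4.29e-07, and -2.75 ± 0.45 without mice 49 and 447). The chemokine Ccl5 fell from 28.5, 22.3, 27.4, 86.8 and 47.2 CPM to 8.18, 7.32, 1.86, 4.72 and 5.15 CPM (-2.84 ± 0.57), and Klrd1, the CD94 chain of natural killer receptors, from 21.9, 5.66, 19.1, 14.3 and 19.9 CPM to 5.39, 2.75, 2.33, 2.17 and 1.34 CPM (-2.32 ± 0.55). Ccl5 was apart between the groups and Klrd1 only just. Cd8a, the co-receptor of cytotoxic T cells, had 0 to 7.31 CPM in controls and no count in any exposed library (adjusted p = 0.0378). Gzmb and the epithelial homing integrin Itgae were called too (adjusted p = 0.0809 and 0.0868), and the median of the list was -1.50. The 13 markers summed to 273 to 766 CPM in controls and 68.2 to 241 CPM in exposed mice, where the highest value was that of mouse 447. Without mice 49 and 447 the median was -2.33 and 5 markers were called, Gzma, Ccl5, Klrd1, Cd3d and Cd3g, the last 2 of which were not called with all libraries, while Cd8a (adjusted p = 0.165), Gzmb (0.180) and Itgae (0.385) lost their call. In tissue such as this, fewer cells of a type and less RNA per cell cannot be told apart.

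Also among the leading decreases were Btnl2 and H2-T23. Btnl2, a butyrophilin-like protein of the gut epithelium (chr17:34354822-34369495), stood at 416, 233, 226, 615 and 235 CPM in controls and 147, 49.7, 91.7, 91.5 and 137.2 CPM in exposed mice (-1.73 ± 0.25, adjusted p = 7.13e-07). H2-T23, which encodes the nonclassical class I molecule Qa-1 bound by CD94 receptors (chr17:36029773-36032855), had 564, 348, 463, 885 and 369.6 CPM in controls and 184, 248, 145, 127 and 156 CPM in exposed mice (-1.61 ± 0.24, adjusted p = 3.32e-06). Neither overlapped. Of 26 genes of interferon response and antigen presentation 4 were lower and none higher (median -0.56), namely H2-K1 (-0.99 ± 0.20), Cd74 (-1.46 ± 0.38), Irf1 (-0.89 ± 0.24) and B2m (-0.97 ± 0.29). Cd74, the invariant chain of class II molecules, stood at 598, 506, 433, 889.6 and 1097 CPM in controls and 195, 670.4, 141, 149.8 and 127 CPM in exposed mice, and mouse 447 overlapped the controls. In the fit without mice 49 and 447, 5 genes of the list were called lower, and B2m was not among them (adjusted p = 0.405). With all libraries the share lower over all genes was 1.07%. Reads of H2 genes may be shared within the family.

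Cholesterol synthesis had the highest median of the 48 lists with all 10 libraries, 0.86. Without mice 49 and 447 the 8 mast cell markers lay above it, at 1.07. With all libraries 5 of its 24 members were higher and none lower, beside 0.384% of genes higher over all genes. Cells make cholesterol from acetyl-CoA through mevalonate and squalene, and the same sterol-regulated factor SREBP-2 is known to drive these enzymes. The promoters of 3 list members are shown for where the searched motifs lie, Msmo1 with CCAAT alone, Acat2 with CACCCCAC alone and Hmgcs1 with both. They were taken from RefSeq (GRCm38.p6) as the 250 bases before the annotated start, and capitals mark CACCCCAC, an element known to bind SREBP, and CCAAT, the element of NF-Y, each searched on both strands (CCAAT reads ATTGG on the other strand). The motifs do not overlap in these sequences. Msmo1 lies at chr8:64733579-64733828 (minus strand), Acat2 at chr17:12960726-12960975 (minus strand) and Hmgcs1 at chr13:119690101-119690350 (plus strand).
Msmo1: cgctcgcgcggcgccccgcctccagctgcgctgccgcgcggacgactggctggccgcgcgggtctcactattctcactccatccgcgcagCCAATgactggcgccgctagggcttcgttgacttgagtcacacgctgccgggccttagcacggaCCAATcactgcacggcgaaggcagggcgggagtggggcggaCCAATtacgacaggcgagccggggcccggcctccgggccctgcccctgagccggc
Acat2: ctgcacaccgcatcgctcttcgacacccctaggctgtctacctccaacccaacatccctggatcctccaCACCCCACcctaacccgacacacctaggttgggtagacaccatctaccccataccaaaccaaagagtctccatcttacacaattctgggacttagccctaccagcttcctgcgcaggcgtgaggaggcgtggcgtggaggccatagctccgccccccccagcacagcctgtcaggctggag
Hmgcs1: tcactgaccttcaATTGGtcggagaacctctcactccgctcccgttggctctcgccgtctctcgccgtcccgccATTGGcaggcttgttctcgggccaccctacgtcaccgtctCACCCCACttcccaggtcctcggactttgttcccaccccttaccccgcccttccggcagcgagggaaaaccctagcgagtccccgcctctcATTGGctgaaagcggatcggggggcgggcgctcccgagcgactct
Of 24 list members 16 had a promoter entry, and CACCCCAC was found in 2 of them, Acat2 at 181 bases and Hmgcs1 at 136 bases before the start, against 846 of 32851 promoters (2.58%). CCAAT was found in 14 of the 16, against 11120 of 32851 (33.8%). By GENCODE M21, Msmo1 starts at chr8:64733792, inside the stretch shown, so its 3 marked CCAAT lie within the gene in that annotation. A match is a description of the letters and not of a bound site.

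Msmo1, a methylsterol oxidase late in the pathway, had 70.4, 67.4, 53.3, 57.5 and 57.9 CPM in controls and 144, 72.6, 179.7, 108 and 205 CPM in exposed mice (1.20 ± 0.26, adjusted p = 0.00217). Mouse 447 came within 3 CPM of the highest control, and the other 4 exposed libraries were all above 100 CPM. Acat2, which makes acetoacetyl-CoA at the first step, had 21.3, 26.5, 26.5, 28.3 and 25.2 CPM in controls and 62.3, 28.1, 51.4, 53.2 and 71.9 CPM in exposed mice (1.05 ± 0.29), with mouse 447 inside the control range. The squalene enzymes Fdft1 (1.15 ± 0.31) and Sqle (1.49 ± 0.42) also rose, and without mice 49 and 447 their adjusted p was 0.251 and 0.368. Hmgcs1 had 40.7, 22.5, 53.9, 21.9 and 19.4 CPM in controls and 57.5, 33.9, 69.8, 46.1 and 43.4 CPM in exposed mice and did not pass the test (adjusted p = 0.486). The 24 genes summed to 842 to 1034 CPM in controls and 1374 to 2240 CPM in exposed mice, and the list median was 0.97 without mice 49 and 447.

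Hnrnpab, among the leading increases and an RNA-binding protein, stood at 306, 406, 351, 261 and 286 CPM in controls and 707, 415, 623, 735 and 825 CPM in exposed crypts (1.04 ± 0.21, adjusted p = 0.00106). Mouse 447 was again the lowest of the exposed group. S100a14, a calcium-binding protein of epithelia (chr3:90526856-90528837), had 4.79, 4.45, 8.93, 0 and 2.85 CPM in controls and 30.9, 34.2, 58.0, 54.3 and 47.5 CPM in exposed mice (3.26 ± 0.72, adjusted p = 0.00208). Mboat1, a lysophospholipid acyltransferase, had 0, 3.03, 1.23, 0 and 5.12 CPM in controls and 29.9, 23.8, 74.0, 46.9 and 20.8 CPM in exposed mice (3.97 ± 0.97). Both were below 10 CPM in all 5 controls and above 20 CPM in all 5 exposed libraries. The mucin glycosyltransferase Gcnt3 rose by 1.66 ± 0.39, the goblet cell peptide Spink4 by 1.23 ± 0.29, the RNA methyltransferase Nsun2 by 1.39 ± 0.31, the importin Kpna2 by 0.92 ± 0.22, Rps19bp1 by 1.38 ± 0.34 and Bcl2l15, a BCL-2 family member, by 2.96 ± 0.70. Of the 24 leading genes 22 were called without mice 49 and 447, the exceptions being Bcl2l15 (adjusted p = 0.123) and Rps19bp1 (0.17).

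Genes of growth and division had higher summed levels in the exposed crypts, while few passed the test singly. Their counts are to be read beside the 0.384% of genes higher over all genes. The 30 mitosis genes summed to 609 to 1781 CPM in controls and 2050 to 2656 CPM in exposed mice, and the 43 DNA replication genes to 974 to 1972 CPM and 2326 to 2645 CPM, without overlap between the groups. No member of either list was called, with medians of 0.65 and 0.47 and 83.3% and 90.7% of members above 0, beside 43.4% of all genes. The medians were 0.56 and 0.30 without mice 49 and 447. Mki67 had 38.0, 49.2, 34.2, 31.6 and 73.6 CPM in controls and 75.7, 101, 49.3, 73.8 and 112 CPM in exposed mice (adjusted p = 0.396), and Pcna 56.0, 139, 121, 85.8 and 180.5 and 171, 133, 151, 204 and 142 CPM (adjusted p = 0.363), both overlapping. Control mouse 49 held the lowest sums, and without it the control range was 1508 to 1781 CPM for mitosis and 1706 to 1972 CPM for replication. Of 40 ribosome biogenesis genes 1 was higher, the RNA polymerase I and III subunit Polr1d (adjusted p = 0.0457), and the median was 0.66. Splicing factors had 2 of 61 higher (Hnrnpab and Hnrnpd, median 0.42) and translation initiation factors 2 of 45 (Eif4a1 and Eif5a, median 0.40), while cytosolic ribosomal proteins had none of 78 called (median 0.39), proteasome subunits none of 44 (0.43), mitochondrial ribosomal proteins none of 75 (0.34) and oxidative phosphorylation subunits none of 73 (0.17). The crypt marker sums overlapped between the groups and the villus marker sums lay lower in the exposed mice, and the part of tissue composition in the growth lists was not tested.

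Lists of damage and stress responses had 0 to 2 calls each, to be read beside the 1.07% of genes lower and 0.384% higher over all genes. Of 26 p53 targets Btg2 was called, and it was lower (-1.21 ± 0.33; adjusted p = 0.205 without mice 49 and 447), while Cdkn1a, the p21 inhibitor, had 5.69, 15.8, 12.9, 55.2 and 17.1 CPM in controls and 14.7, 15.0, 13.5, 9.06 and 24.9 CPM in exposed mice (adjusted p = 0.755). The 26 targets summed to 1091 to 1352 CPM in controls and 877 to 975 CPM in exposed mice, a median of -0.22. Trp53 itself had 96.1, 123, 88.3, 74.8 and 102 and 122, 134, 133, 138 and 115 CPM (adjusted p = 0.45). None of 28 Fanconi and recombination repair genes was called, and their median of 0.40 became 0.11 without mice 49 and 447. Fanci was among them (adjusted p = 0.643). Of 25 NRF2 and antioxidant genes, catalase (Cat, -1.14 ± 0.27) and the ferritin heavy chain Fth1 (-1.11 ± 0.32) fell and none rose by its representative probe, and neither was called without mice 49 and 447. Of 30 hypoxia genes the glycolytic regulator Pfkfb4 (-1.33 ± 0.27) and Mxi1 (-0.97 ± 0.27) fell, though Mxi1 was not called without mice 49 and 447 (adjusted p = 0.385), and Hif1a did not pass (adjusted p = 0.52). Herpud1, a component of endoplasmic reticulum degradation, fell from 144, 126, 168, 202 and 172 CPM to 66.4, 66.8, 55.4, 57.3 and 49.0 CPM (-1.45 ± 0.30), the only call among 23 genes of the integrated stress and unfolded protein responses. Of 12 heat shock genes Hsp90aa1 rose by 0.99 ± 0.30 but was not called without mice 49 and 447 (adjusted p = 0.298), and none of 26 inducible defence genes was called. The oxidase Duox2 had 5.99, 7.08, 3.69, 0 and 2.66 CPM in controls and 16.7, 122, 9.78, 14.2 and 17.7 CPM in exposed mice (adjusted p = 0.281), with the highest value in mouse 447.

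Among markers of other cell types, at most 1 gene of a list was called. Over all genes 0.384% were higher and 1.07% lower. Mcpt1, a protease of mucosal mast cells (chr14:56017971-56020384), stood at 12.3, 15.6, 46.5, 18.0 and 26.8 CPM in controls and 374, 14.3, 383, 259 and 191 CPM in exposed mice, so that 4 exposed libraries lay above every control and mouse 447 among them. Mcpt1 rose by 3.33 ± 0.82 (adjusted p = 0.013). The 8 mast cell markers summed to 25.9 to 76.0 CPM in controls and 230 to 466 CPM in the 4 exposed mice, with 20.1 CPM in mouse 447, and Mcpt1 was the only member called. Mcpt2, looked up after the fit, had 5.99, 0, 8.00, 0 and 0 CPM in controls and 33.5, 0, 46.3, 26.2 and 13.7 CPM in exposed mice (adjusted p = 0.274). Of 11 goblet markers Spink4 was called, and of 3 Brunner gland markers Muc6, whose value came from 1 library (3138 CPM in mouse 448, against 0 to 13.98 CPM in the other exposed mice) and whose sign changed without it. No marker was called for Paneth cells (14 tested), stem cells and Wnt targets (25), enteroendocrine (16), tuft (9), macrophage and dendritic cells (14), smooth muscle (11), fibroblasts (9), endothelium (11), enteric neurons and glia (11), erythrocytes (3) or pancreatic acinar cells (25). The light chain Igkc fell by 0.95 ± 0.27, the only call among 12 plasma and B cell markers. Igkc was not called without mice 49 and 447 (adjusted p = 0.385), where the median of these markers went from -0.24 to -1.31. Acinar markers, the digestive enzymes of the pancreas, summed to 89.6 to 70660 CPM in controls and 28.4 to 44963 CPM in exposed mice, and with their level as a covariate 332 genes were called. Smooth muscle markers summed to 9599 CPM in mouse 447, against 2478 to 2925 CPM in the other exposed mice. Control mouse 49 had 1973 CPM and the other controls 3731 to 5772 CPM. The smooth muscle median went from -0.03 to -0.75 without mice 49 and 447. Macrophage and dendritic cell markers (median -0.59) summed to 412 to 682 CPM in controls. Exposed mice had 302 to 344 CPM, except mouse 447 with 439 CPM. Fibroblast and endothelial sums overlapped between the groups with and without mice 49 and 447. Lyz1, Mmp7, Defa5, Defa22, Ephb2, Klf4, Vil1 and Ctnnd1, genes named because the study discusses them, were not called. Neither were Lgr5, Olfm4 and Myc, members of the stem cell and Wnt list that were named beside them. The 3 erythrocyte markers summed to 1.62 to 11.98 CPM in controls and had no count in any exposed library.

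Smaller lists gave 1 to 3 calls, beside 1.07% of genes lower over all genes. Of 29 nuclear receptors 2 were lower, among them Ppard (-0.77 ± 0.21), of 18 clock genes 1 was lower, and Btg2 was the only call among 18 immediate early genes and Fth1 among 15 genes of metal and iron handling. Amino acid and peptide transporters had 3 of 17 lower, named above. None of these lists had a call without mice 49 and 447.

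**Figure D3:**
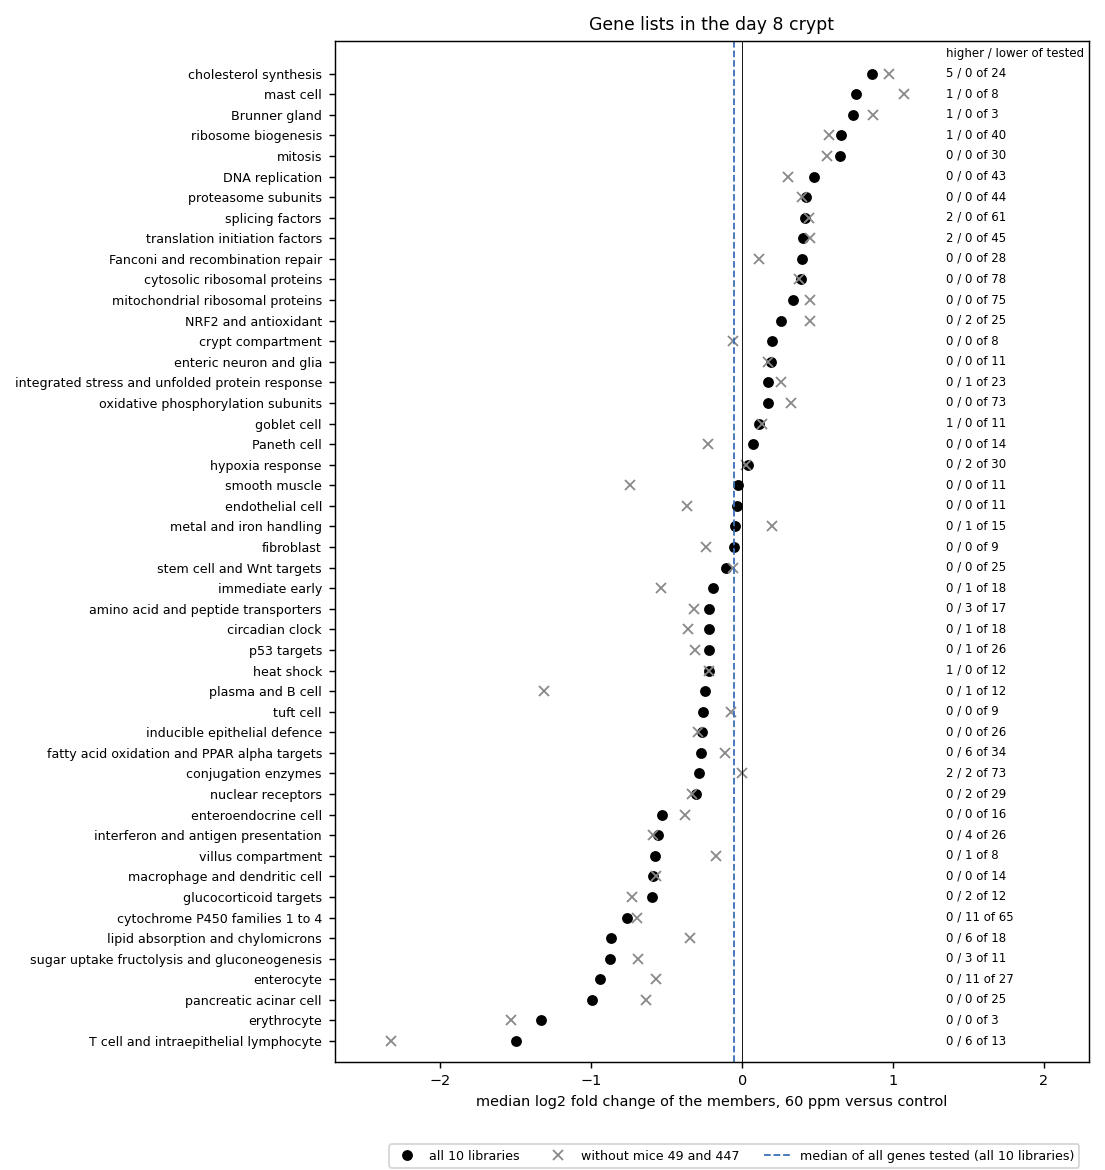
Median log2 fold change of each of the 48 gene lists (60 ppm versus control, day 8 crypt), with all 10 libraries (dots) and without mice 49 and 447 (crosses), and at the right the members called higher and lower of those tested. Cholesterol synthesis lay highest at 0.86 and T cell and intraepithelial lymphocyte markers lowest at -1.50, beside a median of -0.05 over all genes (dashed line).

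The neighbouring concentrations at day 8 show where 60 ppm lies along the dose range. They share the 5 control libraries with 60 ppm, so the values are set side by side and the concentrations were then compared with each other directly. Against those controls 30 genes (0.158%) were called at 20 ppm, 300 at 60 ppm and 693 (3.64%) at 180 ppm. Pck1 differed from control by -3.78 ± 0.59, -4.59 ± 0.62 and -6.74 ± 0.71 at 20, 60 and 180 ppm, Gzma by -2.19 ± 0.40, -2.91 ± 0.41 and -4.01 ± 0.44, and Btnl2 by -1.26 ± 0.25, -1.73 ± 0.25 and -2.60 ± 0.26. Tsc22d3 differed by -1.44 ± 0.31, -2.02 ± 0.32 and -1.77 ± 0.31, and Sgk1 by -3.63 ± 0.66, -4.31 ± 0.70 and -3.30 ± 0.65, with no further fall at the highest concentration. Mcpt1 stood at the control level at 20 ppm (0.06 ± 0.77) and rose at 60 and 180 ppm (3.33 ± 0.82 and 3.04 ± 0.81).

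Direct comparison of 60 with 20 ppm called 3 genes (0.0158%). Fabp6 and Muc6 were higher at 60 ppm, carried by mouse 447 and mouse 448. Tymp had a mean of 18.1 CPM at 60 ppm against 71.0 CPM (-1.93 ± 0.42, adjusted p = 0.0835), and this call rested on single libraries. Without mice 49 and 447, or without any 1 of 20 ppm mice 366, 367 and 368 or exposed mice 447 and 448, only 1 gene was called and none was lower at 60 ppm, so that Tymp lost its call. It did so as well without mouse 449 (2 genes, both higher), and without mouse 446 there were 6 genes. Direct comparison of 180 with 60 ppm called 11 genes (0.0578%), 2 higher and 9 lower at 180 ppm. The trypsinogen-like genes Gm2663 and Gm5771 were higher at 180 ppm, with means of 8.06 and 40.7 CPM at 60 ppm and 1098 and 1837 CPM at 180 ppm. The sum of the acinar markers, digestive enzymes of the pancreas, ran from 28.4 to 44963 CPM among the 60 ppm crypts. With the acinar level as a covariate this comparison also called 11 genes, 3 of them higher at 180 ppm. The part of acinar tissue in Gm2663 and Gm5771 was not tested. The goblet cell protein Clca1 was lower at 180 ppm (-1.74 ± 0.32), at a mean of 258 CPM at 60 ppm and 76.6 CPM at 180 ppm, and the heme exporter Flvcr1 had a mean of 8.84 CPM at 60 ppm and no count at 180 ppm. Without mouse 447 or without mice 49 and 447, 39 genes differed, without 180 ppm mouse 526 there were 30 and without mouse 446 there were 7. None of the 24 leading genes differed between 180 and 60 ppm, and none but Tymp, with the limits above, between 60 and 20 ppm, which does not show that the responses were equal.

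**Figure D4:**
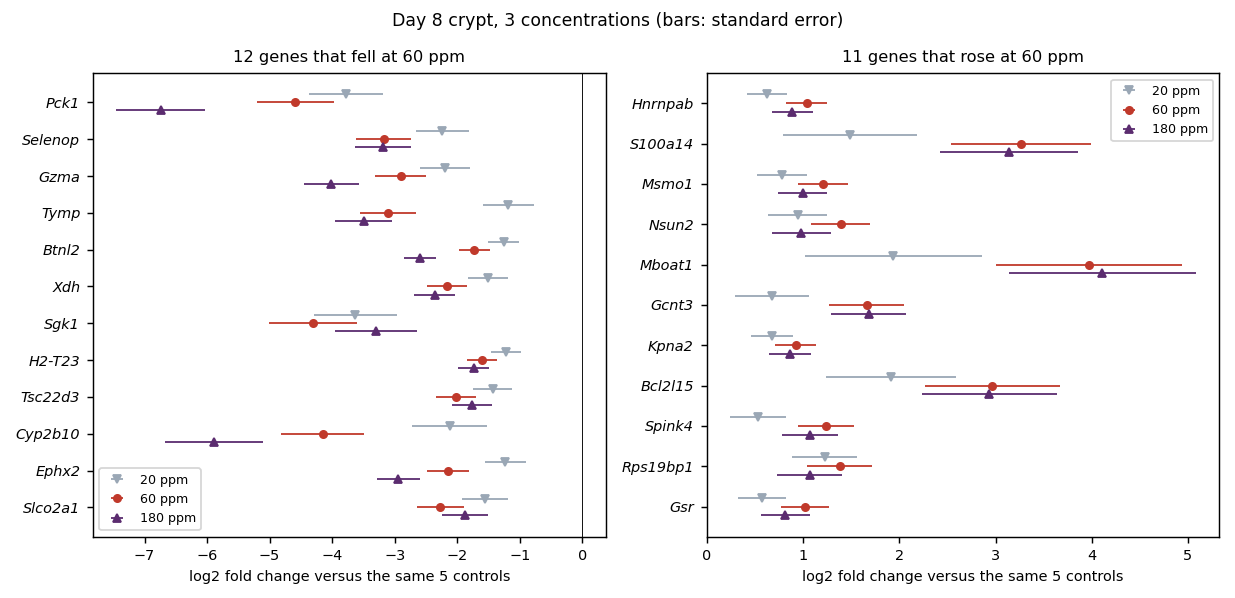
Log2 fold change (horizontal axis) of 23 of the 24 leading genes at 20, 60 and 180 ppm against the same 5 control crypts at day 8, with bars for the SE. Pck1 went from -3.78 at 20 ppm to -4.59 at 60 ppm and -6.74 at 180 ppm.

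In the villus libraries of the same mice 1504 genes (7.91%) were called at 60 ppm, against 300 in the crypt. The test of the difference between the compartments called 3 genes (0.0158%), and with the mouse as a block, which fits the pairing of the libraries by animal, 0 genes by edgeR (821 probes at an unadjusted p under 0.05) and 83 by DESeq2 without the block. Acsl6, an acyl-CoA synthetase, had 3.83 to 42.3 CPM in control villi and no count in exposed villi, while the crypt values were 7.49, 3.64, 12.9, 3.66 and 5.12 CPM in controls and 2.98, 11.3, 6.52, 0.984 and 2.69 CPM in exposed mice. Gm42742 fell in the villus (-2.34 ± 0.35) and had a difference of -0.10 ± 0.32 in the crypt, which was not called. Ibsp, bone sialoprotein, was at 0 in all control villi and in all exposed crypts, and at 0 to 31.1 CPM in exposed villi. Both libraries of mouse 447, the crypt of mouse 49 and the villus of mouse 48, which carried the crypt markers, went against their labels, and without these 4 libraries 12 genes were called, 9 higher and 3 lower. Leaving out single libraries gave 1 gene without the crypt of mouse 446 or the villi of mice 48 or 49, and 5 to 53 without the villi of mice 50 (5), 448 (6), 450 (7), 449 (9), 446 (11) or 447 (53).

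Side by side, Pck1 differed by -4.59 ± 0.62 in the crypt and -5.52 ± 0.65 in the villus, Selenop by -3.17 ± 0.44 and -3.27 ± 0.44, and Tsc22d3 by -2.02 ± 0.32 and -2.77 ± 0.33. None of the 24 leading genes passed the test of the difference. Slco2a1 (-2.27 ± 0.37 in the crypt, -1.02 ± 0.36 in the villus, difference -1.25 ± 0.51, adjusted p = 0.239) and Gsr (1.02 ± 0.25 and 1.75 ± 0.26, difference -0.73 ± 0.35, adjusted p = 0.396) had the values that lay furthest apart for their SE.

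At day 91, after 90 days of exposure, other mice carried the same concentration, with controls of their own. There 2097 genes (11.0%) were called in the crypt. Of the 86 genes higher at day 8, 41 were also higher at day 91, 47.7% of the day 8 list and 2.56% of the 1603 genes of day 91. Of the 214 genes lower at day 8, 115 were lower at day 91, 53.7% of the day 8 list and 22.7% of the 507 genes of day 91. A further 7 genes were lower at day 8 and higher at day 91 (Arhgef7, Cdhr5, Golga4, Lpgat1, Prkcd, Prr15l and Sult1b1), and none of these remained without mice 49 and 447, where 25 of 50 and 58 of 97 genes were shared. Of the 24 leading genes 17 were called at day 91.

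The test of the difference between the days called 1598 genes (8.40%), 1410 with a higher and 192 with a lower log2 fold change at day 91. The split changed with the scaling. DESeq2 size factors gave 1097 genes, 761 higher and 344 lower, and moved the median difference over all probes from 0.15 to -0.06. The count was 133 without control mouse 46, 551 and 715 without day 91 mice 402 and 403, 562 and 776 without day 91 control mice 3 and 6, and 1048 without mouse 449. Of the 24 leading genes 4 passed this test, Tsc22d3, Sgk1, Tymp (not without mice 49 and 447) and Hnrnpab. Tsc22d3 differed by -2.02 ± 0.32 at day 8 and 0.18 ± 0.30 at day 91 (difference 2.20 ± 0.43, adjusted p = 0.0017), and Sgk1 by -4.31 ± 0.70 and -0.37 ± 0.60 (difference 3.94 ± 0.90, adjusted p = 0.00255). At day 91 Tsc22d3 ranged over 86.6 to 213 CPM in controls and 112 to 248 CPM in exposed crypts, which overlapped, where at day 8 the groups were apart. Angptl4, which had fallen at day 8, differed by 0.71 ± 0.50 at day 91. Banp, a nuclear DNA-binding protein, fell at day 8 from 115, 107, 99.1, 77.5 and 112 CPM to 38.5, 34.8, 34.7, 37.8 and 18.1 CPM (-1.62 ± 0.27) and differed by 0.67 ± 0.26 at day 91 (difference 2.29 ± 0.38, adjusted p = 0.000114). The chaperone Hspa8 differed by -0.55 ± 0.24 at day 8 and 1.70 ± 0.25 at day 91 (difference 2.26 ± 0.34, adjusted p = 2.52e-05).

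Among the genes called at both days, Pck1 differed by -4.59 ± 0.62 at day 8 and -5.05 ± 0.64 at day 91, with 119.8 to 393 CPM in day 91 controls and 4.84 to 9.90 CPM in exposed crypts. S100a14 differed by 3.26 ± 0.72 and 3.53 ± 0.71, Mcpt1 by 3.33 ± 0.82 and 3.70 ± 0.84, and Gzma by -2.91 ± 0.41 and -2.13 ± 0.40. The difference between the days did not pass the test for Pck1, S100a14, Mcpt1 or Gzma, which does not show that the effects were equal.

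**Figure D5:**
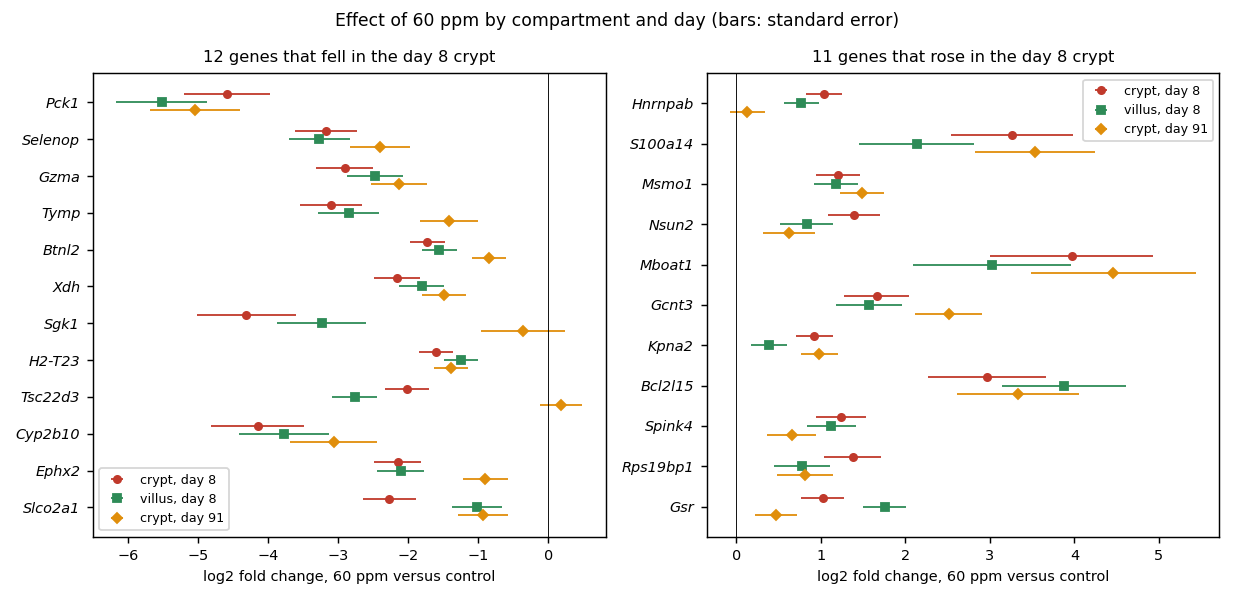
Log2 fold change (horizontal axis) of 23 of the 24 leading genes at 60 ppm in the crypt at day 8, the villus at day 8 and the crypt at day 91, each against its own 5 controls, with bars for the SE. Tsc22d3 and Sgk1 lay at 0.18 and -0.37 at day 91, near 0, while Pck1 lay at -5.05.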

How the data were processed

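The authors deposited raw counts per TempO-Seq probe for 137 libraries. The submitters' processing notes name bcl2fastq 2.17.1.14 and Bowtie, while the genome build used is not given in the sources used here. Deposited counts were used without change, with the gene taken as the probe name without its final number. Groups came from the labels. All 137 libraries entered 1 edgeR 4.0.16 quasi-likelihood fit (R 4.3.3, limma 3.58.1, trended dispersions, legacy form, TMM scaling, filterByExpr, prior count 2), and p-values were adjusted by Benjamini-Hochberg over 26365 probes, with calls at an adjusted p below 0.1. A gene was called if any of its probes was, while lists used 1 representative probe a gene, that with the highest total count. The procedure was tested on simulated data. SEs are the absolute log2 fold change fitted without the prior count, divided by the root of F. The printed log2 fold changes include the prior count. For genes with few counts, a printed value divided by its SE is therefore not the test statistic. Fits without a library kept the probes and dispersion trend of the fit with all.

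Leading genes were the 12 with the smallest p in each direction among called genes whose groups did not overlap and whose mean reached 5 CPM in a group. Up to 4 called members a direction were named from each of 48 lists (29 pathway and 19 marker lists), or the 2 with the smallest p where none was called. Added to these were genes the study discusses, some further crypt and proliferation genes, and up to 6 genes a direction from each other comparison. Some genes under these rules are not reported here. The members and lists were chosen with earlier results of these data known.

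Crypt and villus libraries with the same mouse number came from the same animal. On log2(CPM + 1) deviations from group means, the correlation of a crypt with its own villus ran from 0.00367 to 0.354 over 10 mice, and 6 of 10 crypts correlated best with their own villus. Alternatives were other scaling, filters, thresholds, sets of libraries, covariates, thinned or summed counts, the mouse as a block, and DESeq2 1.42.0. Those leaving out mice 49 and 447, or 4 libraries, were chosen after seeing the data. Coordinates are from GENCODE M21 (GRCm38).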

Additional observations from a re-analysis of the deposited data

Results flagged for a closer look

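Of 222 groups of 5 libraries tested for a library far from the other 4, 35 had one. The crypt of control mouse 49 stood apart in 15 of them and that of exposed mouse 447 in 10. The cutoff flags about 1 in 20 groups of normally distributed values, which was not checked for these unlogged CPM. All groups come from the same 10 libraries and are not independent, so that rate is no measure of chance here. Mouse 49 lay above the other controls for Pck1 (976 CPM), Selenop (1632 CPM), Sgk1 (107 CPM), Cyp2b10 (244 CPM), Ephx2 (2186 CPM), Apoc3 (439 CPM), Apoc2 (715 CPM), Treh (487 CPM), Ehhadh (302 CPM), Slc15a1 (209 CPM), Slc5a1 (4242 CPM), B2m (254 CPM), Cdkn1a (55.2 CPM) and the villus marker sum (19395 CPM), and below them for Nsun2 (8.98 CPM). Mouse 447 lay above the other exposed mice for Cd74 (670.4 CPM), Fabp6 (6779 CPM), Duox2 (122 CPM), the T cell and intraepithelial lymphocyte sum (241 CPM) and the smooth muscle sum (9599 CPM), and apart from them for Nsun2 (75.1 CPM), Gsr (294 CPM), Eif4a1 (221 CPM), Eif5a (1012 CPM) and Defa5 (79.9 CPM). The remaining libraries were control mouse 46 for Bcl2l15 (58.1 CPM), Muc6 and the Brunner gland sum (68.0 CPM each) and the erythrocyte sum (11.98 CPM), control mouse 50 for the enteroendocrine sum (228 CPM), and exposed mice 446 for Cyp2b10 (15.8 CPM) and the acinar sum (44963 CPM), 448 for Muc6 (3138 CPM) and the Brunner gland sum (3139.9 CPM) and 450 for Banp (18.1 CPM).

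The log2 effect of 60 ppm in the crypt differed between the days, as day 91 minus day 8, for Sgk1 (3.94), Angptl4 (3.20), Banp (2.29), Hspa8 (2.26), Ptbp3 (2.23), Tsc22d3 (2.20), Cyp4f16 (2.10), Golga4 (2.07), Efl1 (1.82), Fth1 (1.78), Dnajb11 (1.75), Tymp (1.69), Apoa1 (1.65), Ctnnd1 (1.62), Igkc (1.28), Ppard (1.13), Pfkfb4 (1.06), H2-K1 (0.98) and Vil1 (0.92) upwards. It differed downwards for Fabp6 (-7.15), Ugt2b5 (-4.36), Mylk (-2.63), Cldnd1 (-1.83), Rbm3 (-1.76), Sparc (-1.42), Srsf5 (-1.33), Polr1d (-1.23) and Hnrnpab (-0.91). The Fabp6 value was carried by the crypt of mouse 447. Its day 8 log2 fold change was 9.11 with all libraries and -0.48 without mice 49 and 447, beside 1.96 at day 91. Without mice 49 and 447, Tymp, Apoa1 and H2-K1 no longer passed (adjusted p = 0.345, 0.409 and 0.115 by edgeR). These values are of 1 probe a gene, and other called probes of Cyp4f16, Apoa1 and H2-K1 fell at both days, by 1.51, 1.86 and 0.93 at day 8 and by 1.20, 1.70 and 0.74 at day 91 (adjusted p = 0.0121, 0.00297 and 0.0115 at day 91 by edgeR). Between the compartments, as crypt minus villus, the effect differed for Acsl6 (4.67), Gm42742 (2.24) and Ibsp (-7.35). With the mouse as a block none of these passed, as 0 genes were called.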

How the results depend on the processing

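For 60 ppm against control the 300 genes became 490 (189 higher) with the default form of the quasi-likelihood fit, 707 (266 higher) by DESeq2, 85 (20 higher) with the 2 groups fitted alone, 147 without mice 49 and 447 and 194 (102 higher) when the crypts of day 8 were also fitted alone without them. Leaving out 1 library gave 88 (without 49) to 369 (without 447), and 172 without 449. For 60 against 20 ppm the 3 genes became 15, 20, 0 (936 probes at an unadjusted p under 0.05) and 1 with the default form, by DESeq2, with the groups alone and without mice 49 and 447, and 1 to 6 without 1 library. For 180 against 60 ppm the 11 genes became 25, 48, 2 and 39 in that order, 20 with a mean count of at least 10, and 7 to 39 without 1 library. For crypt minus villus the 3 genes became 7 with the default form, 83 by DESeq2, 0 with the groups alone (687 probes unadjusted), 1 with both compartments of day 8 alone, 6 with thinned counts and 12 without 4 libraries, and 1 to 53 without 1 library. With the mouse as a replicate block the count was 0, and no other comparison has paired libraries. For day 91 minus day 8 the 1598 genes became 655 at an adjusted p under 0.05, 1015 with a mean count of at least 10 and 719 with thinned counts, and 133 to 1933 without 1 library. The 28 lists with a called member became 13 with the groups alone and 18 without mice 49 and 447, and 16 to 32 without 1 library. Without 1 library the log2 fold change of Muc6 ran from -1.02 (without mouse 448) to 9.28 and that of Fabp6 from -0.25 (without mouse 447) to 9.85, and Fabp6 also changed sign without mice 49 and 447 (-0.48), also with the day 8 crypts alone (-0.49) or the default form (-0.44). The cause of these shifts was not tested beyond the libraries left out. Of 73 named genes called, 26 were called under all 25 alternatives. Of 1822 values over these genes and settings, 1556 were still called, 261 were no longer called and 5 changed sign. Genes near the floor of 3 counts are the least certain.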
